A study of Mus musculus with 25 samples.

Results

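The genes described here are 9 outputs of the circadian clock: the transcription factors Dbp, Tef, Hlf, Nfil3, Ciart, Bhlhe40 and Bhlhe41, and the clock-driven genes Usp2 and Wee1. They were chosen by name, as the 9 rows that carry these symbols among 56941 gene rows of the table, and all 9 passed the filter on low counts that left 17682 genes for testing. RNA from 25 mouse hearts was depleted of ribosomal RNA and sequenced in strand-specific libraries. The wild-type hearts (WT) comprised 4 without a pump, 6 given saline and 3 given the treatment labelled Ang/PE. The hearts labelled MCT1KO, a knockout by its name of the lactate transporter gene Slc16a1 (MCT1), comprised 3 without a pump, 4 given saline and 5 given Ang/PE. How the knockout was made, the dose and duration of the treatments, strain, sex, age and the hour at which the hearts were collected are not given in the sources used here. The hour matters for reading every value below, because these genes are known to cycle over the day in many tissues: time of collection was not tested and cannot be told apart from group. The set was proposed after Per3, a core clock gene, had been seen to be lower under Ang/PE than under saline in hearts labelled MCT1KO. The values of that comparison, and of the others that use the same 5 Ang/PE hearts, are therefore given as a description only.

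The circadian clock is a transcriptional loop in which CLOCK and BMAL1 (encoded by Arntl) activate genes through the E-box, and the PER and CRY proteins made from those genes shut that activation off. The loop sends its timing out through a second layer of factors. Dbp, Tef and Hlf encode the PAR bZIP proteins, activators that bind the D-box, and Nfil3 (E4BP4) encodes a bZIP repressor that competes for the same site. Ciart (CHRONO), Bhlhe40 (DEC1) and Bhlhe41 (DEC2) encode repressors that act at E-boxes against CLOCK and BMAL1. Usp2 encodes a deubiquitinating enzyme and Wee1 a kinase that holds back entry into mitosis, and both are clock-driven in many tissues. In the heart, the cardiomyocyte clock is known to time genes of metabolism, ion channels and contraction.

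Promoters are shown first, since these genes are grouped by the sites through which they are driven or through which they act. Sequences are from RefSeq on build GRCm38.p6, which is not the build named for the counts. Each is the stretch of 250 bases before an annotated start, and 7 of the 9 genes had at least 1 entry, 8 in all because Tef has 2 starts. Capitals mark matches on either strand to the E-box CACGTG or to the ROR element TNGGTCA, the site of ROR activators and REV-ERB repressors. The D-box TTANGTAA was also searched. The motifs do not overlap in the sequences shown. The Ciart window (chr3:95882229-95882478, minus strand) holds 3 E-boxes, and it is shown because no other member has more than 1 in a window. The 2 Tef windows (chr15:81802423-81802672 and chr15:81811164-81811413, plus strand) hold 1 E-box each, and the Bhlhe41 window (chr6:145865421-145865670, minus strand) holds 1. The Nfil3 window (chr13:52981040-52981289, minus strand) is shown for its ROR element, and the Dbp window (chr7:45704997-45705246, plus strand) because the largest differences below are those of Dbp.
Ciart: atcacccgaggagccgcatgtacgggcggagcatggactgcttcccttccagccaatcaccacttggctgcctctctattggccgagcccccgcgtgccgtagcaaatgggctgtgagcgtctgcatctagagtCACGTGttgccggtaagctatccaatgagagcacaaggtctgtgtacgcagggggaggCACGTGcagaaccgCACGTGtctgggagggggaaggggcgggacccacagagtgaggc
Tef, first start: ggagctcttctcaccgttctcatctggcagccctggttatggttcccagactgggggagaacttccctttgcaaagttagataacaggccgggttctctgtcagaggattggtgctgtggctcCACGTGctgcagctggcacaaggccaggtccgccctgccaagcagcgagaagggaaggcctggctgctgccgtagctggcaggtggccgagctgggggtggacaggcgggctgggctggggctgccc
Tef, second start: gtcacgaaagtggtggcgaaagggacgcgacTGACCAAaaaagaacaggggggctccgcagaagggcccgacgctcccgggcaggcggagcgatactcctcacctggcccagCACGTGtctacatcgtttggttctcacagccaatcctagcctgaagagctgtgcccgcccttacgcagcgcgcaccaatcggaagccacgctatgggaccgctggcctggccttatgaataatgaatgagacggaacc
Bhlhe41: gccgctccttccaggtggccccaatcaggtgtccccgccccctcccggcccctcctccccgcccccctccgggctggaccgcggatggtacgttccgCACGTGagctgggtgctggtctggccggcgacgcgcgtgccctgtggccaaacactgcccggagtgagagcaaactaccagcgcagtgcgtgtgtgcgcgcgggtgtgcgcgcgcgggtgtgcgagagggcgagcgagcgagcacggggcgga
Nfil3: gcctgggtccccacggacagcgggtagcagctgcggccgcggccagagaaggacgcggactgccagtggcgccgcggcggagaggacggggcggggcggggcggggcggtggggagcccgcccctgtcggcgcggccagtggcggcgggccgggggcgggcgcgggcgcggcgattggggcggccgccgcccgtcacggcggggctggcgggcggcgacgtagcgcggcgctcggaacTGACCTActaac
Dbp: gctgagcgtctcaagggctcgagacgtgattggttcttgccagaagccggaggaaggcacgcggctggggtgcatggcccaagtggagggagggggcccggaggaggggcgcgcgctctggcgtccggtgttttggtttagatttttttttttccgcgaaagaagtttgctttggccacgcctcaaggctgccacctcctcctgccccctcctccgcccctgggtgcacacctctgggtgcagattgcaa

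The E-box was present in 4 of the 8 member windows, which belong to 3 genes, where 6.02% of 32851 promoter windows of the same length hold it. The ROR element was present in 2 windows, those of Nfil3 and the second Tef start, against 9.19% of all windows, and the D-box was found in none of the member windows, against 2.06%. In Ciart the E-boxes begin 116, 58 and 44 bases before the start. The Dbp, Hlf and Usp2 windows held none of these letters. The member windows were rich in G and C, from 60.4% in the second Tef window to 81.6% in Nfil3, while the mean over all windows was 53.2%, and the part of base composition in the matches was not tested.

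Libraries held 12216704 to 24880683 counts. The lowest count of any member in a library was 28 (Ciart), and the lowest counts of Dbp, Tef and Usp2 were 155, 1178 and 1017. Slc16a1 was not lower in the libraries labelled MCT1KO without a pump, at 200 ± 29.6 CPM (counts scaled to library size; SD, n = 3) against 203 ± 36.8 in WT (n = 4). With saline it was 158 ± 26.0 (n = 4) against 199 ± 29.9 CPM (n = 6), and with Ang/PE 190 ± 21.9 (n = 5) against 214 ± 10.6 CPM (n = 3). No group had lost it, so the label is used below only as a name; the part deleted is not given in the sources used here, and counts over the whole gene need not show it. All 5 muscle markers listed as ventricular (Myh6, Myl2, Tnnt2, Tnni3 and Actc1) were present in every group, with a summed level of at least 27280 CPM. That sum mostly reflects Myh6: in the lowest heart, MCT1KO saline heart 4, Myh6 was at 19690 CPM and Myl2 at 839 CPM. Atrial and adipocyte markers were high in some but not all saline hearts, and their values are given beside the comparison they touch. Xist exceeded 100 CPM in 2 of 4, 0 of 3, 1 of 6, 3 of 4, 3 of 3 and 4 of 5 hearts (WT then MCT1KO, for no pump, saline and Ang/PE), so the sexes were unevenly spread over groups. The atrial marker Myl7 was at most 0.785 CPM in any no-pump or Ang/PE heart. With saline it reached 379 CPM in WT and 1357 CPM in hearts labelled MCT1KO. Whether the same parts of the heart were taken in each group was not tested. In RNA from heart tissue, fewer cells of a type and less RNA per cell cannot be told apart.

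Per kilobase of exon, Dbp had the highest mean level of the 9 genes over all hearts, at 28.2 CPM per kb, followed by Usp2 at 25.7, Tef at 19.4 and Bhlhe40 at 13.5. Bhlhe41 (6.22 CPM per kb), Nfil3 (5.94), Wee1 (4.44), Hlf (4.08) and Ciart (4.02) were lower. The genes also differed in how far their CPM ranged over the 25 hearts. Nfil3 spanned 14.3-fold, Dbp 13.3-fold, Ciart 9.38-fold and Hlf 5.24-fold, whereas Tef, Bhlhe40, Bhlhe41, Usp2 and Wee1 each spanned between 2.42-fold and 2.80-fold.

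**Figure D1:**
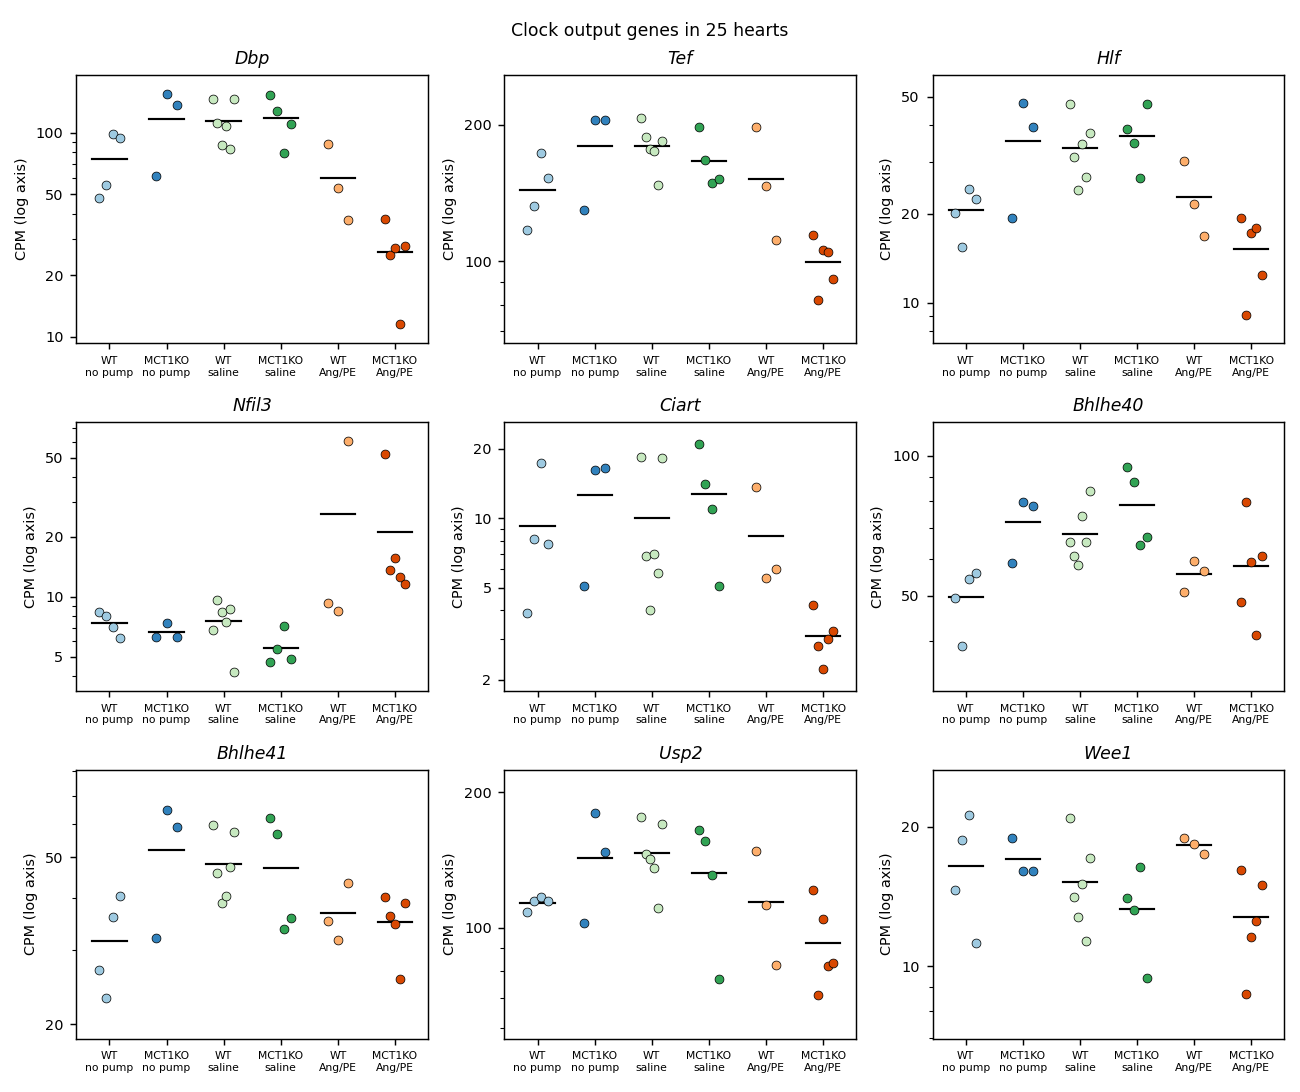
Level of each of the 9 genes in every heart, in CPM on a log axis, by genotype and treatment (points, hearts; bars, group means). The 5 hearts labelled MCT1KO given Ang/PE lie below all hearts of the other groups for Ciart except 1 WT heart each without a pump and with saline, and Nfil3 is high in 1 heart of each Ang/PE group, at 60.3 and 51.9 CPM.

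Dbp, a strongly cycling PAR bZIP gene in many tissues, was lowest in hearts labelled MCT1KO given Ang/PE. Its level there was 37.6, 25.2, 27.2, 11.6 and 27.9 CPM, and the pump-free hearts of the same label held 61.1, 154 and 136 CPM. The groups did not overlap. In the same genotype given saline Dbp was at 153, 127, 79.7 and 110.4 CPM. The WT hearts given Ang/PE stood at 88.3, 53.7 and 37.2 CPM, within reach of the WT hearts without a pump at 48.1, 55.3, 98.5 and 94.0 CPM. The 6 WT saline hearts ran from 82.8 through a median of 109.5 to 146 CPM. Ordered by mean, the groups were MCT1KO saline (117 ± 30.6), MCT1KO no pump (117 ± 49.3), WT saline (114 ± 27.6), WT no pump (73.9 ± 26.0), WT Ang/PE (59.7 ± 26.1) and MCT1KO Ang/PE (25.9 ± 9.32 CPM, SD). No neighbours in that order were separated without overlap.

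Tef, the PAR bZIP gene with the highest counts, had the same lowest group with a smaller span. Hearts labelled MCT1KO given Ang/PE held 114, 82.2, 106, 105 and 91.5 CPM, and those without a pump held 130, 204 and 205 CPM, again without overlap. With saline the same genotype held 198, 167, 148 and 152 CPM. In WT the Ang/PE hearts (197, 146 and 111 CPM) spread across the range of the no-pump hearts, at 117, 132, 173 and 152 CPM, and the saline hearts ran from 147 to 206 with a median of 180.4 CPM. Tef was the only PAR bZIP gene whose lowest group, at 99.7 ± 12.7 CPM, did not overlap the next in order, WT no pump at 144 ± 24.1 CPM.

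Hlf, the third PAR bZIP gene, stood at 19.4, 9.08, 17.3, 17.9 and 12.4 CPM in hearts labelled MCT1KO given Ang/PE. Without a pump the same genotype held 19.4, 47.6 and 39.4 CPM. The groups thus met at 19.38 CPM and were separated only beyond these digits. With saline it held 39.0, 34.8, 26.6 and 47.1 CPM. The WT means were 20.6 ± 3.82 without a pump, 33.6 ± 8.31 with saline and 22.9 ± 6.76 CPM with Ang/PE. The first no-pump heart labelled MCT1KO was the lowest of its group for Dbp, Tef and Hlf alike.

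Nfil3, which encodes the repressor at the D-box, was highest in the Ang/PE groups. All 17 hearts without Ang/PE lay between 4.21 and 9.66 CPM. Hearts labelled MCT1KO given Ang/PE held 51.9, 13.6, 15.7, 12.6 and 11.6 CPM, all above that range. WT hearts given Ang/PE held 9.36, 8.46 and 60.3 CPM, so only the third lay above it. The means of 21.1 ± 17.3 and 26.0 ± 29.7 CPM each rest on 1 high heart, and the group medians were 13.6 and 9.36 CPM.

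Ciart, the CLOCK-BMAL1 repressor with 3 E-boxes in its promoter window, was at 4.21, 2.79, 2.23, 2.99 and 3.24 CPM in hearts labelled MCT1KO given Ang/PE. Without a pump the genotype held 5.10, 16.2 and 16.5 CPM, and with saline 20.9, 14.1, 11 and 5.07 CPM. WT hearts given Ang/PE were at 13.7, 5.52 and 6.00 CPM. Every heart labelled MCT1KO given Ang/PE lay below every heart of these other 3 groups. WT no-pump hearts, at 3.88 to 17.3 CPM, and WT saline hearts, at 4.01 to 18.4 CPM, each had 1 heart that reached into the range.

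The other repressors at E-boxes and the clock-driven genes varied less. Bhlhe40 means ran from 49.7 ± 7.64 CPM in WT no pump to 78.2 ± 15.04 in MCT1KO saline, and Bhlhe41 means from 31.6 ± 7.97 in WT no pump to 51.9 ± 17.4 in MCT1KO no pump. For both genes the lowest group was WT without a pump and not an Ang/PE group. Usp2 means ran from 92.6 ± 20.2 CPM in MCT1KO Ang/PE to 147 ± 23.9 in WT saline, and the WT no-pump hearts stood close together at 108 to 117 CPM. Wee1 means ran from 12.8 ± 2.90 CPM in MCT1KO Ang/PE to 18.2 ± 0.739 in WT Ang/PE. None of these 4 genes had neighbouring groups that were separated without overlap.

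In hearts labelled MCT1KO, Ang/PE was compared with no pump, a contrast that shares its 5 Ang/PE hearts with the one in which the clock had been noticed. Dbp fell by 2.18 on the log2 scale (SE 0.354, edgeR adjusted p = 0.00646), which is 0.221 of its no-pump level. Tef fell by 0.85 (SE 0.167, edgeR adjusted p = 0.021) and Hlf by 1.22 (SE 0.278, edgeR adjusted p = 0.047). These 3 of 9 members were called lower, and 0 higher, where 0.503% of all genes tested were called, 0.254% lower and 0.249% higher. Nothing is read from that count, because the low Per3 of these 5 Ang/PE hearts led to the choice of the genes. The values of this contrast are a description for the same reason. The log2 difference of Ciart was -2.03 (SE 0.570) and that of Nfil3 1.65 (SE 0.570), but neither passed (edgeR adjusted p = 0.11 and 0.194). Usp2 (-0.63), Bhlhe41 (-0.57), Wee1 (-0.42) and Bhlhe40 (-0.31) did not pass either. DESeq2 called Ciart as well (log2 difference -2.03, DESeq2 adjusted p = 0.0221), where it called 2.28% of all genes. Over the 9 genes the median log2 difference was -0.63. Groups were separated without overlap with Ang/PE lower for 4 members (Dbp, Tef, Hlf and Ciart, 3.96% of all genes). With Ang/PE higher they were separated for 1 (Nfil3, 4.49%). For Hlf the nearest hearts of the 2 groups were both at 19.38 CPM, so its separation is close to a tie.

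The calls of that contrast depend on few hearts and on the other groups in the fit. None of the 3 passed when only the 2 groups compared were fitted (edgeR adjusted p = 0.104 for Dbp, 0.0615 for Tef and 0.196 for Hlf), or without the saline hearts (0.0501, 0.0604 and 0.0941), an alternative chosen after seeing the data. Without no-pump heart 2 none of the 3 passed (edgeR adjusted p = 0.0699 for Dbp, 0.207 for Tef and 0.414 for Hlf), while Dbp kept a log2 difference of -1.94. Dbp passed when any other heart was left out, and Tef was lost without no-pump heart 3 (edgeR adjusted p = 0.0845), Ang/PE heart 2 (0.0637) or Ang/PE heart 5 (0.053). Hlf was lost without no-pump heart 3 (edgeR adjusted p = 0.116) or Ang/PE heart 2 (0.106), 3 (0.0518), 4 (0.0553) or 5 (0.101). Xist was above 100 CPM in 0 of the 3 no-pump and 4 of the 5 Ang/PE hearts, and with Xist as a covariate Dbp remained called (log2 difference -2.31, edgeR adjusted p = 0.0468) but Tef and Hlf did not (0.0611 and 0.235). None of the 4 atrial or 5 adipocyte markers was called here.

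Against saline, in the same genotype, the values of the Ang/PE hearts are given without a test. The log2 differences were -2.19 for Dbp, -0.74 for Tef, -1.28 for Hlf, -2.05 for Ciart and 1.92 for Nfil3. For these 5 genes the groups did not overlap, 4 with Ang/PE lower (2.36% of all genes) and 1 with Ang/PE higher (3.06%). The remaining 4 genes had log2 differences of -0.51 (Usp2), -0.44 (Bhlhe40), -0.42 (Bhlhe41) and -0.06 (Wee1), with overlap. The fitted model called 4 members lower and 1 higher, against 2.7% and 1.75% of all genes (4.46% in all), and nothing is read from that count because this contrast led to the choice of the genes. In this contrast 3 of 4 atrial markers (Myl4, Myl7 and Sln) and 5 of 5 adipocyte markers were also called lower with Ang/PE. The summed atrial markers ran from 64.0 to 7385 CPM in the saline hearts and from 316 to 5149 in the Ang/PE hearts, where Nppa made up most (up to 5144) and Myl7 was at most 0.279 CPM. The summed adipocyte markers ran from 12.1 to 1459 CPM with saline and from 12.7 to 15.99 with Ang/PE, where Ucp1 was at 0 in every heart. The upper ends with saline come from 1 library, MCT1KO saline heart 4, which stood apart from its group: Ucp1 was at 551 CPM, Adipoq at 123, Myl7 at 1357 and the ventricular marker Myl2 at 839, against 3489 to 5504 CPM of Myl2 in the other 3. MCT1KO saline heart 3 had Myl7 at 0 and Adipoq at 0.125 CPM. Without heart 4 the log2 differences were -2.22 for Dbp, -0.79 for Tef, -1.15 for Hlf, -2.33 for Ciart and 1.85 for Nfil3, and the model called 2 members in place of 5. Scores of the atrial markers Myl4, Myl7 and Sln, without Nppa, and of the 5 adipocyte markers were also used as covariates. The log2 difference of Dbp was then -2.01, but 0 members were called (edgeR adjusted p = 0.716 for Dbp). Over all genes the number called in this contrast ranged from 0 to 1224 over the alternatives, so nothing about these members in particular is read from that count. In the no-pump hearts of the same label, which are compared above with the same 5 Ang/PE hearts, the summed adipocyte markers were at 11.8 to 18.3 CPM.

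**Figure D2:**
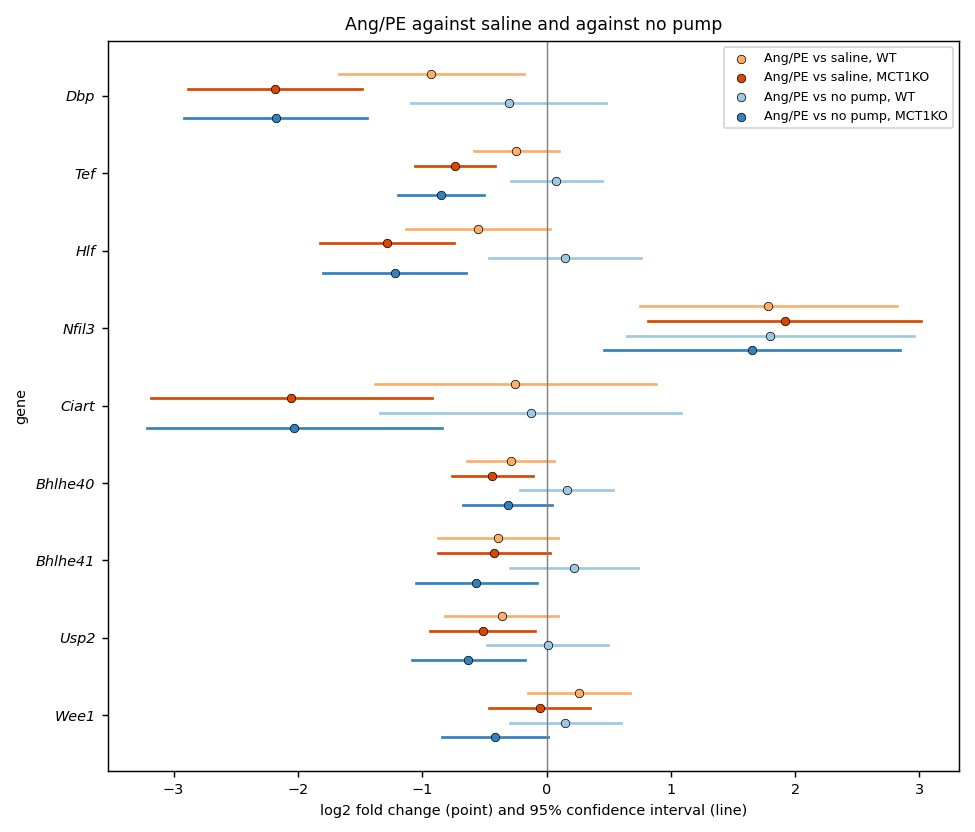
Log2 fold change of each gene (points) with its 95% confidence interval (lines) for Ang/PE against saline and against no pump, in WT and in hearts labelled MCT1KO, from the edgeR fit. Dbp lies near -2.19 and -2.18 in MCT1KO and at -0.93 and -0.31 in WT, and Nfil3 lies between 1.65 and 1.92 in all 4 contrasts, which share Ang/PE hearts within a genotype.

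In WT hearts no member was called for Ang/PE against saline (0 of 9, with 0.017% of all genes called) or against no pump (0 of 9, with 0.0% called). At an unadjusted p under 0.05 edgeR listed 2 and 1 members, against 19.1% and 9.02% of all genes. Against saline, Dbp had a log2 difference of -0.93 (SE 0.359, edgeR adjusted p = 0.175) and Nfil3 of 1.78 (SE 0.497, edgeR adjusted p = 0.0826). Against no pump, the log2 difference of Nfil3 was 1.80 (SE 0.554, edgeR adjusted p = 0.427) and that of Dbp -0.31 (SE 0.375). Nfil3 was separated from the no-pump hearts without overlap, with Ang/PE higher, as were 3.63% of all genes. The Nfil3 values rest on the third Ang/PE heart: without it they were 0.26 against saline and 0.27 against no pump (edgeR adjusted p = 0.896 and 0.948), and without the first the comparison with saline passed, at 2.19 (0.0473). Tef, Hlf and Ciart had log2 differences of -0.24, -0.55 and -0.25 against saline, with 95% intervals from -0.58 to 0.10, -1.13 to 0.03 and -1.38 to 0.88.

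The interaction of genotype with Ang/PE against saline asks whether the response differs between genotypes. It contains the whole MCT1KO contrast that led to the choice of these genes, so its values too are a description without a test. The log2 interaction was -1.80 for Ciart (SE 0.755), -1.26 for Dbp (SE 0.473), -0.73 for Hlf (SE 0.375), -0.50 for Tef (SE 0.225) and 0.13 for Nfil3 (SE 0.722). The model called 0 of 9 members (0.0% of all genes) and listed 3 at an unadjusted p under 0.05 by edgeR (13.5%), and nothing is read from these counts.

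Between genotypes given Ang/PE, 8 of 9 members had lower fitted levels in hearts labelled MCT1KO, and 0 passed (0.0% of all genes). At an unadjusted p under 0.05 edgeR listed 5 of 9, where 6.92% of all genes were listed. They were Tef (log2 difference -0.61, SE 0.168), Dbp (-1.21, SE 0.356), Wee1 (-0.52, SE 0.208), Ciart (-1.46, SE 0.585) and Hlf (-0.59, SE 0.284), with edgeR adjusted p from 0.692 to 0.711. Ciart and Wee1 were separated without overlap, lower in MCT1KO, as were 2.1% of all genes. Wee1 was at 18.9, 18.3 and 17.4 CPM in the WT hearts and at 16.1, 8.73, 11.5, 12.5 and 14.9 CPM in those labelled MCT1KO. This comparison shares all 8 Ang/PE hearts with the interaction above, including the 5 labelled MCT1KO in which the clock had been noticed. Its values are therefore a description, and nothing is read from its counts.

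Without a pump, 8 of 9 members had higher fitted levels in hearts labelled MCT1KO, again with 0 of 9 called (0.0% of all genes). At an unadjusted p under 0.05 edgeR listed 3 members, against 12.2% of genes: Hlf with a log2 difference of 0.78 (SE 0.289), Bhlhe41 with 0.72 (SE 0.245) and Bhlhe40 with 0.54 (SE 0.180), MCT1KO being higher, with edgeR adjusted p of 0.30, 0.277 and 0.271. Bhlhe40 was at 58.7, 79.4 and 77.8 CPM in the hearts labelled MCT1KO and at 49.4, 39.0, 54.3 and 56.0 CPM in WT, without overlap (5.07% of genes were separated with MCT1KO higher). With saline no member was called and none was listed at an unadjusted p under 0.05 by edgeR (0.0% and 17% of genes), and the median log2 difference of the 9 genes was -0.04.

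Saline was compared with no pump to see what the pump itself goes with. In WT, 0 of 9 members were called by edgeR, where 6.61% of all genes were, and 4 were listed at an unadjusted p under 0.05 (24.3% of genes). These were Hlf (log2 difference 0.70, SE 0.252), Bhlhe41 (0.61, SE 0.212), Bhlhe40 (0.45, SE 0.155) and Tef (0.32, SE 0.151), all higher with saline, with edgeR adjusted p of 0.0904, 0.0828, 0.0769 and 0.191. DESeq2 called 3 of the 9, where it called 1949 of the 17682 genes. Bhlhe40 was separated without overlap, at 58.3 to 83.9 CPM with saline and 39.0 to 56.0 without a pump, as were 4.1% of genes in that direction. In this contrast 3 of 4 atrial markers were also called, with summed levels of 46.6 to 2596 CPM against 60.3 to 132 CPM. With the atrial and adipocyte scores as covariates, Hlf, Bhlhe41, Bhlhe40 and Tef were not called. Over all genes the number called ranged from 0 to 2287 over the alternatives, so nothing is read from that. The part of the markers in the differences was not tested further. In hearts labelled MCT1KO 0 of 9 were called (0.00566% of genes) and 0 were listed by edgeR at an unadjusted p under 0.05 (12.1%). The interaction of genotype with this step was below 0 for all 9 members, from -0.10 to -0.75 on the log2 scale, with 0 called (0.00566%) and 1 listed at an unadjusted p under 0.05 by edgeR (17.2%), Bhlhe41 (-0.75, SE 0.323, edgeR adjusted p = 0.239).

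The core clock genes that drive these outputs were taken as a list of 15. For Ang/PE against no pump in hearts labelled MCT1KO, 1 was called higher and 3 lower (0.503% of all genes were called). This contrast uses the same 5 Ang/PE hearts as the contrast with saline, so nothing is read from that count. Arntl, which encodes BMAL1, rose by 1.599 on the log2 scale (SE 0.337, edgeR adjusted p = 0.0324). Nr1d2, which encodes the repressor REV-ERB beta, fell by 0.80 (SE 0.132, edgeR adjusted p = 0.0064), and Cry2 fell by 0.66 (SE 0.152, edgeR adjusted p = 0.0457). Per3, the third, whose low level in these 5 hearts led to the choice of the genes, had a log2 difference of -1.70 (SE 0.273). Arntl was at 21.1, 31.2, 27.6, 32.0 and 30.6 CPM with Ang/PE and at 14.2, 6.85 and 7.11 CPM without a pump. Per3 was at 23.3, 25.0, 28.2, 19.3 and 23.9 CPM against 48.2, 94.5 and 90.4 CPM. Arntl was above its no-pump range in the same 5 hearts in which Dbp and Ciart, which it is known to drive, were below theirs. Arntl and Dbp also ran opposite over the 25 hearts after group means were removed (r = -0.84). Whether Arntl had a part in the levels of Dbp and Ciart was not tested. These calls too depend on few hearts. Without no-pump heart 2 Arntl, Nr1d2 and Cry2 did not pass (edgeR adjusted p = 0.276, 0.0649 and 0.429). Nr1d2 passed when any other heart was left out, whereas Arntl passed in 3 and Cry2 in 2 of the 8 fits with 1 heart left out. Against saline, given as a description, Arntl, Clock and Npas2 were called higher and Per3, Nr1d1, Nr1d2 and Cry2 lower (4.46% of all genes were called). In the other 9 comparisons 0 of the 15 were called. The median log2 difference of the list was -0.10 against no pump and 0.00 against saline.

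Genes known as targets of the cardiomyocyte clock were mostly not called. Of 8 (Klf15, Kcnip2, Kcnh2, Pik3r1, Bdh1, Dgat2, Tcap and Nampt), 0 were called in 10 of the 11 comparisons. With Ang/PE, relative to saline, in hearts labelled MCT1KO, Bdh1, a ketone body enzyme, had a log2 difference of 1.00 (SE 0.273). Tcap, a sarcomere protein, had one of -0.65 (SE 0.146). Both were called, in a contrast given as a description. Of 3 genes known as PAR bZIP targets in liver, Alas1 and Por could be tested and neither was called in any comparison, and Nr1i3 did not pass the filter.

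**Figure D3:**
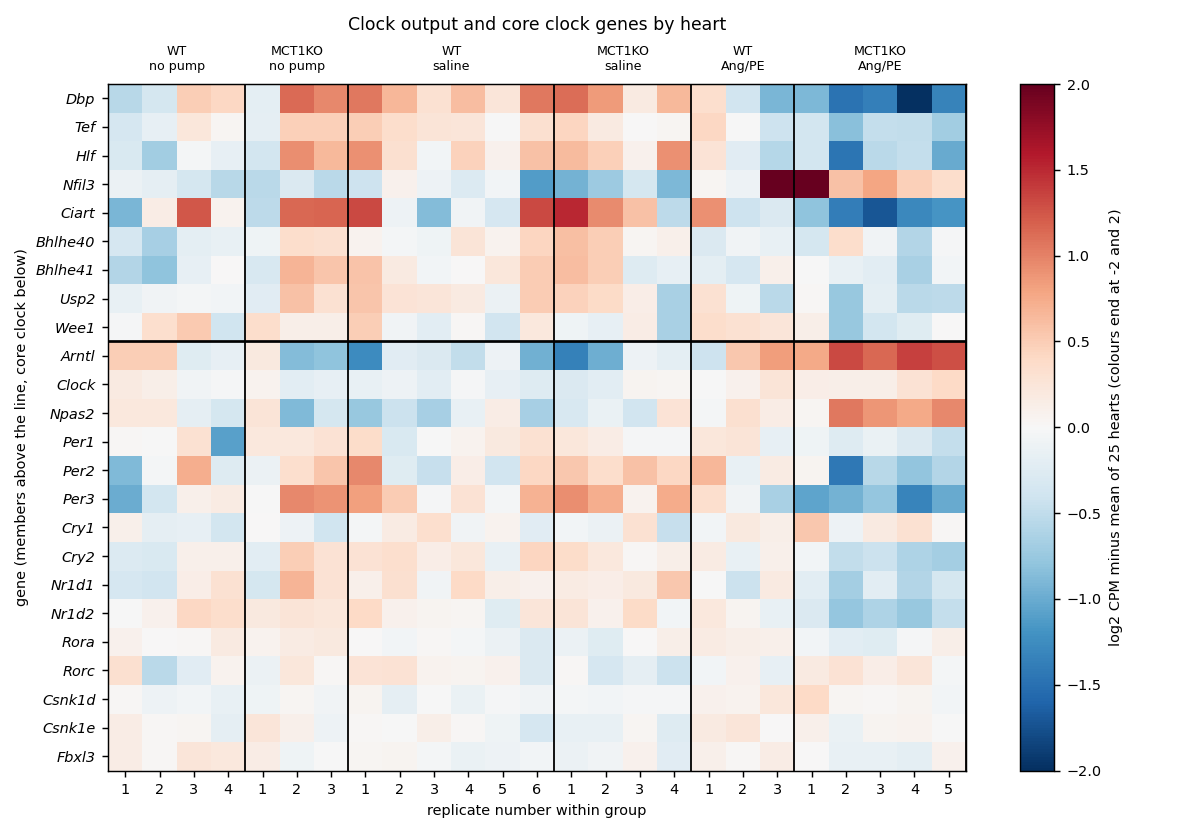
Level of the 9 output genes (above the line) and 15 core clock genes (below) in each heart, as log2 CPM minus the mean of the 25 hearts (red higher, blue lower, colours ending at -2 and 2). In the 5 hearts labelled MCT1KO given Ang/PE, Dbp, Tef, Hlf, Ciart and Per3 are blue and Arntl is red. In the first heart labelled MCT1KO without a pump, Dbp is at 61.1 CPM, against 154 and 136 CPM in the other 2 hearts of its group.

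Hearts of 1 group also differed among themselves, so the members were compared after group means were removed. Over the 25 hearts, deviations of Dbp in log2 CPM went with those of Tef (Pearson r = 0.742, Spearman rho = 0.81, adjusted permutation p = 0.00221 for r and 0.00056 for rho over 8 relations). The relation was as close for Bhlhe41 (r = 0.743, rho = 0.705), and it was present for Ciart (r = 0.688, rho = 0.715), Usp2 (r = 0.641, rho = 0.758) and Hlf (r = 0.604, rho = 0.643). Their adjusted permutation p for r was 0.00221, 0.00221, 0.00524 and 0.0184, and for rho 0.0013, 0.00115, 0.00056 and 0.00722, with unadjusted p for r of 0.00068, 0.00042, 0.00262 and 0.0115 (0.00083 for Tef). Bhlhe40 followed less closely (r = 0.546, rho = 0.506, adjusted permutation p = 0.0215 and 0.0263, unadjusted 0.0161 and 0.0197). Nfil3 (r = -0.171, rho = -0.271) and Wee1 (r = 0.16, rho = 0.255) did not pass (adjusted permutation p = 0.541 for both r and 0.26 for both rho). The 2 hearts farthest from the median of Dbp, 1 labelled MCT1KO given Ang/PE and 1 without a pump, were then left out. The group means still included them when r was taken, so r is not free of these 2 hearts. On that basis r was 0.858 for Tef, 0.744 for Ciart, 0.728 for Hlf, 0.647 for Bhlhe41 and 0.629 for Usp2. For Bhlhe40 r was 0.357. The permutation p used group means without the 2 hearts, and the relation of Bhlhe40 did not pass (adjusted permutation p = 0.243). Without the 10 saline hearts the relation of Hlf (r = 0.547) and Bhlhe40 (r = 0.49) did not pass (adjusted permutation p = 0.13 and 0.144), whereas r was 0.72 for Tef, 0.714 for Ciart, 0.735 for Bhlhe41 and 0.731 for Usp2 (0.0228 for each). Tef and Hlf, both PAR bZIP genes, had r = 0.794 with each other, and Tef with Bhlhe40 had r = 0.119, given as descriptions. Each value comes from the same 25 libraries and shares their depth.

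**Figure D4:**
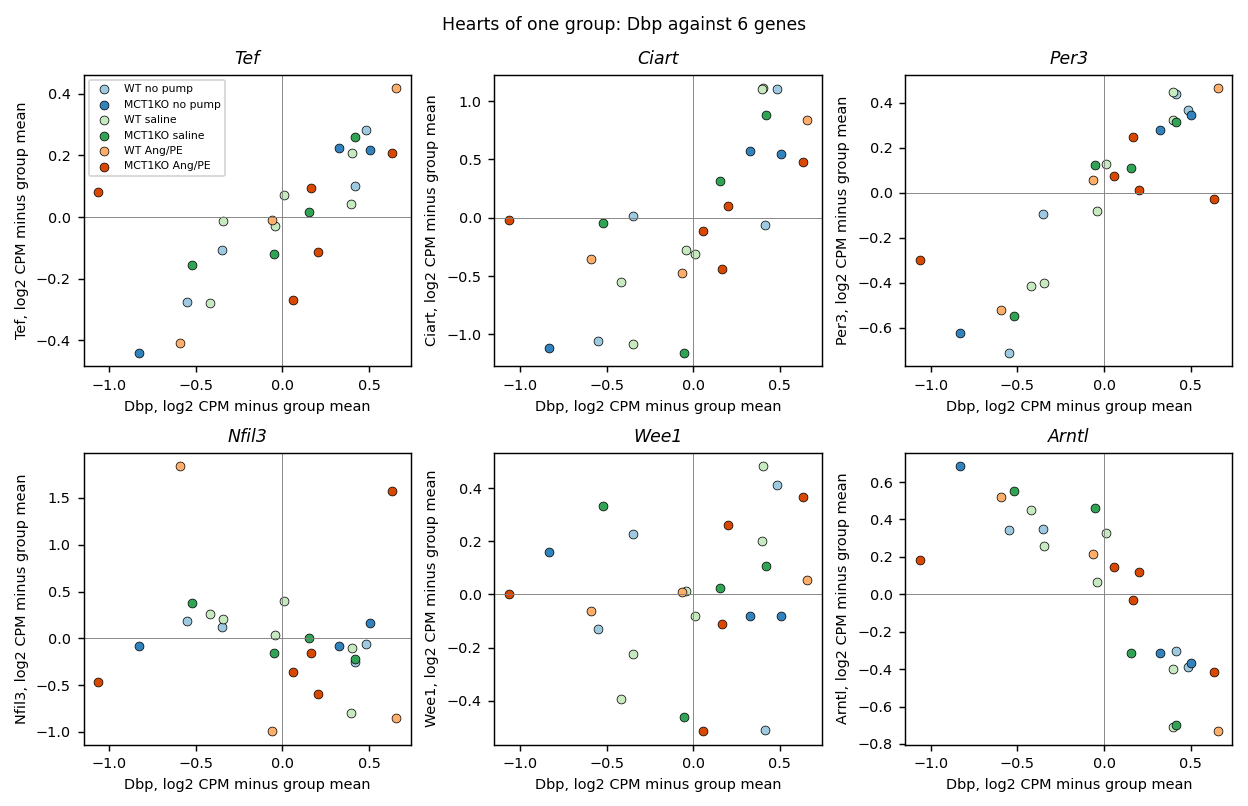
Deviation of each heart from its group mean in log2 CPM, Dbp on the horizontal axis and 6 other genes on the vertical axes (points, 25 hearts, coloured by group). Tef, Ciart and Per3 slope upward (r = 0.742, 0.688 and 0.87), Arntl slopes downward (r = -0.84), and Nfil3 and Wee1 show no clear slope.

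Likeness to Dbp was ranked over 11569 genes that had a symbol and averaged more than 1 in log2 CPM. Numbered gene models, such as those with Gm and Rik names, were left out. The deviations most like Dbp over the 25 hearts were those of Per3 (r = 0.87), Cry2 (0.769), Bhlhe41 (0.743), Tef (0.742) and Strada (0.738). The most opposite were Arntl (r = -0.84), Akirin1 (-0.725), Steap4 (-0.683), Clock (-0.682) and Tstd3 (-0.674). These are descriptions of 25 libraries without a test. Ciart ranked 7, Usp2 18, Hlf 28 and Bhlhe40 64 in that order, while Wee1 ranked 2486 and Nfil3 8743. Per1, at r = 0.128, ranked 3014 although it belongs to the core loop.

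Some members share their place in the genome with another gene, and the strand setting of the counting is not given in the sources used here. On the GENCODE M21 annotation, the span of the gene Sphk2 overlaps that of Dbp on the opposite strand. Sphk2 held 10465 reads over its whole length, against 37580 for Dbp. Whether exons overlap was not examined, and reads in the shared stretches were not counted. The gene C920021L13Rik lies opposite Ciart, with 1967 reads against 4067. Opposite genes of the other members held 0 to 167 reads, and no member overlaps a gene on its own strand. The values of Dbp and Ciart therefore carry this limit most.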

How the data were processed

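RNA was measured in 25 mouse hearts. The authors deposited 1 table of raw counts per gene, with Ensembl identifiers; per the submitters' processing notes, cutadapt 1.16, STAR 2.7.9a, featureCounts 1.6.3, DESeq2 1.42.1 and the mouse build GRCm39 were used, with the roles, the annotation and the strand setting not given in the sources used here. Each column was matched to its heart by the sample title, and 0 columns of per-sample values were unmatched.

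The members, the gene lists, the comparisons and the rule for named genes were chosen with earlier results of these data known. All 9 members are named; from the other lists, counts and at most 4 genes of smallest p per comparison; and the 5 genes most and least like Dbp. 1 gene of the list of cardiomyocyte clock targets is not reported here.

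Genes were filtered with filterByExpr, scaled by TMM factors and fitted with edgeR 4.0.16 (glmQLFit, robust, and glmQLFTest, two-sided) in R 4.3.3, as 1 model of 6 groups with 19 residual degrees of freedom, a common biological coefficient of variation of 0.196 and 11 comparisons. Benjamini-Hochberg adjustment was made over 17682 genes in each, and genes were called at an adjusted p below 0.05. CPM are counts scaled by the TMM-adjusted library size; lengths per kilobase are exon unions of GENCODE M21. Correlations used log2 CPM (prior count 0.5) and 100000 two-sided permutations within groups. The fit was tested on simulated counts. Over 43 pairs of replicate libraries chi-square per degree of freedom was at least 3.6, so none was treated as a copy. Nothing in the labels says how the hearts of a group were housed or processed, so p-values measure the spread between these hearts. Alternatives were RLE scaling, DESeq2 1.42.0, no filter on low counts, fitting the compared groups alone, a replicate block, no robust fitting, removal of mitochondrially encoded genes, Xist or marker scores as covariates, each heart left out, and, chosen after seeing the data, all saline hearts left out.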

Additional observations from a re-analysis of the deposited data

Results flagged for a closer look

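Nfil3 in the first heart labelled MCT1KO given Ang/PE was at 51.9 CPM, while the other 4 hearts of its group lay between 11.6 and 15.7 CPM. The gap to the nearest heart was 0.798 of the range of the group, which is larger than the 95% limit of Dixon's test for 5 samples. Of 36 such tests over the 9 genes and the groups of at least 4 hearts, 1 passed, where chance gives about 1.8 (1 in 20). Without that heart, the log2 difference of Nfil3 between Ang/PE and saline in hearts labelled MCT1KO was 1.26 in place of 1.92, and against no pump 1.00 in place of 1.65. The third WT heart given Ang/PE had a similar level, 60.3 CPM, in a group of 3, which is too small for the test.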

How the results depend on the processing

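For Ang/PE against no pump in hearts labelled MCT1KO, 3 members were called, 0 when only the groups compared were fitted, 1 with Xist as a covariate, and 0 to 3 with 1 heart left out. DESeq2 called Ciart in addition to those 3. Without the saline hearts, chosen after seeing the data, 0 were called (edgeR adjusted p of Dbp 0.0501). With Ang/PE, relative to saline, in hearts labelled MCT1KO, 5 were called, 3 without the filter on low counts, 0 with only the groups compared, 0 with the marker covariates, and 2 to 5 with 1 heart left out; Wee1 went from -0.06 to 0.05 on the log2 scale without MCT1KO saline heart 3 or MCT1KO Ang/PE heart 2, and ranged from -0.194 to 0.05 over single hearts left out. For saline against no pump in WT, 0 were called, 3 by DESeq2 and 4 with only the groups compared. For Ang/PE against saline in WT, 0 were called and 0 to 1 with 1 heart left out. The correlation of Dbp with Hlf was 0.547 and with Bhlhe40 0.49 without the saline hearts. For Bhlhe40 it was 0.357 without the 2 hearts farthest from the median, with group means that still included them. For Nfil3 it was -0.624 when group means were not removed (adjusted permutation p = 0.00207). These counts of called members stand beside the ranges of all genes called under the alternatives, which are given below. Nothing about the members in particular is read from the counts. The cause of these changes was not tested.

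Replicate numbers shared between groups do not pair the hearts: over 52 same-numbered pairs the mean correlation of deviations was 0.008, against -0.0022 for 205 other pairs, and in 0 pairs of groups was every correlation over 0.1. With the replicate number as a block, 3 members were called for Ang/PE against saline and 1 against no pump in hearts labelled MCT1KO.

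Of 99 pairs of a member and a comparison, 37 were followed through all alternatives, giving 701 log2 differences: 639 kept their direction and their side of the threshold, 51 lost the call, 9 gained one and 2 changed sign. Of the other pairs, 29 changed sign under at least 1 alternative. Of the core clock genes called for Ang/PE against no pump, Nr1d2 passed under all 10 alternatives other than single hearts left out, Cry2 under 6 and Arntl under 5. DESeq2 gave no adjusted p for Nfil3 in the 4 comparisons of Ang/PE with saline or no pump. Over all genes, the number called varied far more: 788 for Ang/PE against saline in MCT1KO (0 to 1224 over alternatives, 39 to 1541 with 1 heart left out), 89 against no pump (11 to 403, and 1 to 123), 1168 for saline against no pump in WT (0 to 2287, and 60 to 2234) and 3 for Ang/PE against saline in WT (0 to 945, and 1 to 131). In the other 7 comparisons, where 0 or 1 gene was called, alternatives called up to 371 and leaving out 1 heart up to 663.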
